A study of Mus musculus with 2 samples.

Results

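Metallothioneins are small cysteine-rich proteins that bind zinc and copper in the cytoplasm and nucleus. Their transcription is raised by metals through MTF1, a zinc-finger factor that recognises metal response elements in promoters, and also by oxidants, glucocorticoids and low oxygen. Mt1 and Mt2 encode the widely expressed forms, Mt3 encodes a form best known from the brain, and Mt4 a form best known from stratified epithelium. Slc30a1 encodes ZnT1, the zinc exporter of the plasma membrane, and is a classical MTF1 target, so it is read here as a reference for the response to metals.

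The genes described are Mt1, Mt2, Mt3 and Slc30a1, 4 of the 55415 features of the table, picked by symbol. These are nuclear genes and not the mitochondrially encoded genes written with the prefix mt. The choice followed earlier results of these data, in which Mt3 was the 1 gene at least 4-fold lower in the reporter-positive library. The comparison of the libraries therefore describes the genes and supports nothing by itself. Mt4, the remaining gene of the cluster, and Mtf1 are given beside them.

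The cells were mESC, embryonic stem cells of the mouse that keep dividing in culture without losing pluripotency, of a line carrying GFP under the promoter of the endogenous retrovirus MERVL and the nuclear label H2B-mIFP. MERVL is transcribed in the embryo at the 2-cell stage and in rare stem cells that resemble it, where the Zscan4 genes are also on. One group is MERVL GFP positive and the other MERVL GFP negative, both carry the same reporter and label, and each has 1 single-cell library. The labels name no other agent or allele, no time and no way of separating the cells, and their batch field repeats the group, so the effects of batch and reporter state cannot be told apart. GFP marks the activity of a promoter, and its transcript need not follow the state of a cell in time.

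The positive library held 4596 cells after the filter and 138303336 UMIs (molecule counts), with a median of 29554.5 per cell, and the negative library 3832 cells and 156406894 UMIs, with a median of 39099.5. The median mitochondrial share of a cell was 2.56% and 1.60%, and its part in the difference between libraries was not tested. GFP stood at 205 CPM (UMIs scaled to a common total per library) against 0.454 CPM, although 1683 of the positive library's 4402 cells had no GFP among 10000 UMIs. The pluripotency list was at 16700 and 16000 CPM, the primitive endoderm list at 209 and 104, the trophoblast list at 97.0 and 58.9, the fibroblast list at 13.9 and 3.87 and the neural list at 80.8 and 82.5. No endoderm or trophoblast marker was at 0 in either library, and 2 of 9 fibroblast markers were at 0 in the negative one. The libraries shared 3 cell barcodes. With 1 library per group no test between groups was possible. All intervals are 95% intervals and cover counting error only.

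The metallothionein genes lie together on chromosome 8 of GRCm38 (mm10), all on the plus strand and each with 3 exons. In GENCODE vM21, Mt4 spans chr8:94137197-94139031, Mt3 chr8:94152607-94154146, Mt2 chr8:94172664-94173568 and Mt1 chr8:94179082-94180327, a stretch of 43131 bases in all. Slc30a1, with 2 exons, lies apart at chr1:191906767-191913247 on the plus strand. The 250 bases before each RefSeq start (GRCm38.p6) are shown, a window set by the annotated start of each member. Capitals mark matches to the core of the metal response element, searched as TGCACNC or TGCGCNC on both strands.
Mt1, chr8:94178839-94179088: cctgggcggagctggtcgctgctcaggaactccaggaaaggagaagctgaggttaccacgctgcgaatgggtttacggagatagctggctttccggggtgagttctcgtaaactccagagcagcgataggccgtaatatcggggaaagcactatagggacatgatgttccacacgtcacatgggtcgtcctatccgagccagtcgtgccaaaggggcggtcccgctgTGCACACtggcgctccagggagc
Mt2, chr8:94172368-94172617: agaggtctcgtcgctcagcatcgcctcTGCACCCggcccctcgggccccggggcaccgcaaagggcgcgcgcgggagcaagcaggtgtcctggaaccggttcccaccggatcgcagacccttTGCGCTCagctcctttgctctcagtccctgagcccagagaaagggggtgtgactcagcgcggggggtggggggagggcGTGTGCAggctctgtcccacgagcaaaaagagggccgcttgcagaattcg
Mt3, chr8:94152357-94152606: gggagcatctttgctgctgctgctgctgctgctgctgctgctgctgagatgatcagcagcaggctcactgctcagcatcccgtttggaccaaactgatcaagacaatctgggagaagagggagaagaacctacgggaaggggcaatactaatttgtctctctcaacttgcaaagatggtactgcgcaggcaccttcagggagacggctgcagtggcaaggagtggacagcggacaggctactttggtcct
Slc30a1, chr1:191906531-191906780: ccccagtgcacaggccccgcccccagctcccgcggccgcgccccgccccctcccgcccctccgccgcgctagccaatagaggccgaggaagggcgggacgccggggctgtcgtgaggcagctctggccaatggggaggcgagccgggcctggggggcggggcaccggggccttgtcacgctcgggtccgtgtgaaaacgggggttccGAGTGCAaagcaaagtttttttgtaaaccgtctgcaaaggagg
Over the 300 bases that include the 50 after the start, Mt2 held 4 matches, Mt1 held 3, Slc30a1 held 2, and Mt3 and Mt4 held 1 each. Of 32851 such promoter windows in the RefSeq table, 25.7% held at least 1 match, 7.11% at least 2, 1.97% at least 3 and 0.517% at least 4. The single match of Mt3, 2 of those of Mt1, 1 of those of Mt2 and 1 of those of Slc30a1 lay after the start, outside the bases printed. The core of the hypoxia response element, ACGTG on either strand, was found 1 time for Mt1 and in none of the other windows, against 19.6% of all windows. The windows and the match counts depend on the annotated start. In GENCODE that start lies 46 bases downstream of the RefSeq start for Mt2 and upstream of it for Mt1 and Slc30a1. The start in use in these cells was not measured. For Mt1 and Mt2 the promoter in use may lie further downstream than the window, so the match counts of the genes may not be like for like. A match is a string of letters and not a bound site.

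All 3 metallothioneins named above were lower in the positive library, while Slc30a1 stood at the same level in both on the CPM scale. Mt1 stood at 152 CPM in the positive library (21045 UMIs, exact Poisson interval 150 to 154) and at 475 CPM in the negative (74219 UMIs, 471 to 478). That is 3.12-fold lower in the positive library (exact conditional interval 3.07 to 3.17), a log2 ratio of CPM + 1 of -1.63. Mt2 stood at 108 CPM (106 to 110) against 279 CPM (276 to 282), 2.58-fold lower (2.54 to 2.63). The counting intervals of the libraries lay far apart for both genes.

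Mt3 had 396 UMIs against 2379, or 2.86 CPM (2.59 to 3.16) against 15.2 CPM (14.6 to 15.8). It was 5.31-fold lower in the positive library (4.77 to 5.92), and its log2 ratio was -2.07 on the scale of CPM + 1 and -2.41 without the added 1. Mt4 stood at 1.05 and 2.99 CPM, 2.85-fold lower (2.36 to 3.46), below the 10 CPM that the size rule asks of at least 1 library. The whole cluster was thus lower in the positive library, with Mt4 resting on few molecules.

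Slc30a1 came to 11 CPM in each library, from 1523 positive-library UMIs (10.5 to 11.6) and 1718 negative-library UMIs (10.5 to 11.5). The ratio was 1.0 (0.935 to 1.07). Mtf1, the factor that drives metal-responsive transcription, stood at 21.2 against 20.1 CPM, a ratio of 1.05 (1.0 to 1.11). On the CPM scale neither the reference exporter nor the factor shared the difference of the metallothioneins.

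The size rule called genes whose CPM + 1 differed by 2-fold or more, if they reached 10 CPM on 1 side and 50 UMIs over both. By it the 3 metallothioneins past these limits were lower, where 80 of 8042 genes, or 0.995%, were called lower. Mt4 did not reach the limits, and Mt3 reached 10 CPM through the negative library alone. Mt3 was itself the 1 gene of 8042, or 0.0124%, that was lower by 4-fold or more. The rule that chose the members used this contrast, so the shares are given as the setting of the values. The median log2 ratio of the 8042 genes was 0.14, and 564 of them, or 7.01%, were called higher. With TMM scaling 251 genes were called lower and 406 higher, a less uneven split. TMM put the median gene at -0.14 and Slc30a1 at -0.27, and it left Mt1 at -1.93, Mt2 at -1.65 and Mt3 at -2.32.

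**Figure D1:**
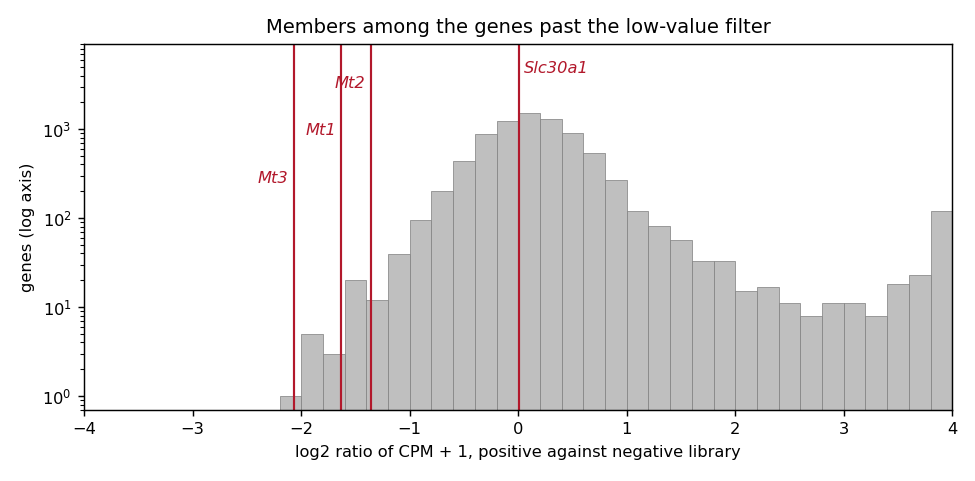
Histogram of the log2 ratio of CPM + 1, positive against negative library, over the 8042 genes past the low-value filter (vertical log axis in genes; ratios beyond 4 are counted in the last bar). Red lines mark Mt3 at -2.07, Mt1 at -1.63, Mt2 at -1.36 and Slc30a1 at 0.0033; the metallothioneins sit in the thin lower tail and Slc30a1 near the centre.

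Shares of cells with a UMI followed the same order as the levels, as a lower mean alone would give. Each cell was thinned to 10000 UMIs, for which 194 cells of the positive and 8 of the negative library were too shallow. Mt1 was then seen in 48.6% of the cells of the positive library (exact binomial interval 47.2 to 50.1) and in 91.0% of those of the negative (90.0 to 91.9). At full depth the shares were 71.8% and 99.1%, so that a cell with no UMI among 10000 need not lack the transcript. The median thinned cell held 0 Mt1 UMIs on the positive side and 3 on the negative. Mt2 was detected in 44.8% against 85.4% of thinned cells.

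Mt3 was seen in 2.34% of thinned cells (1.91 to 2.83) where the reporter was positive and in 13.3% (12.2 to 14.4) where it was negative, and in 6.53% and 39% at full depth. Slc30a1 was seen in 442 of 4402 thinned cells of the positive library (an interval of 9.17% to 11%) and in 9.65% of those of the negative (8.73 to 10.6). Those intervals overlap, as did the CPM intervals of Slc30a1. No class of cells known to lack metallothioneins was at hand as a measure of free RNA, and its part in these shares was not tested. The lowest Mt1 share in a class of over 100 cells was 25.3%, in 162 positive-library cells with both GFP and endoderm markers, whose median depth was 25317.5 UMIs.

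Mt1 varied over cells far beyond counting noise. The variance of thinned UMIs over their mean, which is 1 for pure counting noise and tends to grow with the mean, was 13.8 for Mt1 among positive-library cells and 7.43 among negative-library cells. For Mt2 it was 4.49 and 2.33, for Mt3 1.91 and 1.15, and for Slc30a1 1.08 in both, at means of 4.83 for Mt1 and 0.105 for Slc30a1 in the negative library. At full depth the top 1% of cells held 23.1% of the Mt1 UMIs of the positive library and 7.46% of those of the negative, beside 9.59% and 8.15% for the far sparser Slc30a1. The highest cells reached 171 and 177 thinned Mt1 UMIs, so the maxima of the libraries were close.

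**Figure D2:**
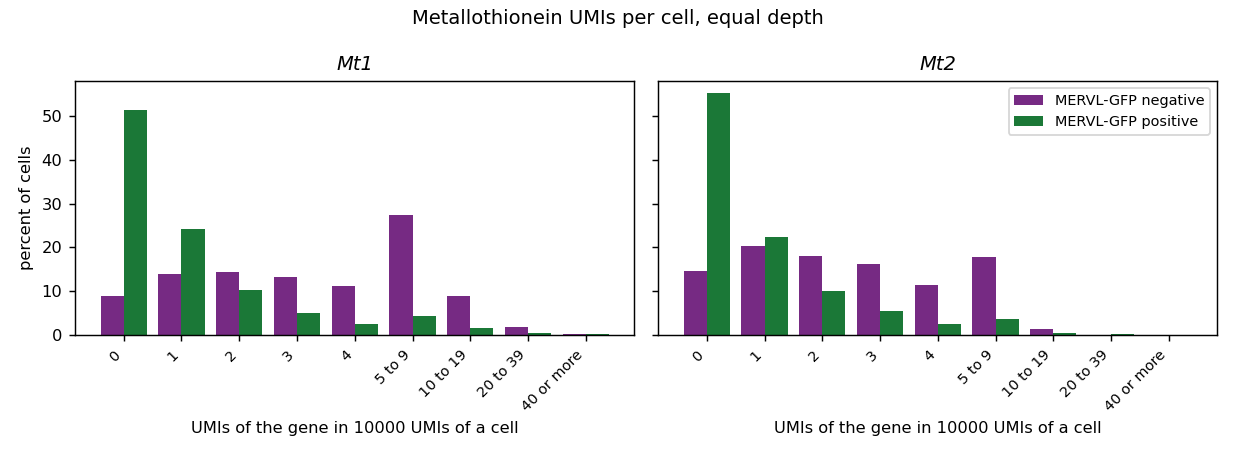
Percent of cells (vertical axis) by the number of Mt1 or Mt2 UMIs among 10000 UMIs of a cell, in the negative (purple, 3824 cells) and positive (green, 4402 cells) libraries. In the positive library 51.4% of cells had no Mt1 UMI, against 9.02% in the negative, and both libraries had a thin upper tail.

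Within the positive library, cells with more GFP had less metallothionein. In cells with 0 (1683 cells), 1 to 2 (1312 cells) and 3 or more (1407 cells) GFP UMIs among 10000, Mt1 stood at 211 (208 to 215), 140 (137 to 144) and 80.2 CPM (77.4 to 83.1). Mt2 stood at 142, 101 and 67.1 CPM, and Mt3 at 4.75 (4.20 to 5.35), 1.90 (1.51 to 2.37) and 1.19 CPM (0.870 to 1.58). The order was the same in all 3 genes, and for Mt1 and Mt2 no neighbouring intervals overlapped. For Mt3 those of the upper classes did.

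Between the outermost GFP classes Mt1 was 2.64-fold lower in the cells with more GFP (2.53 to 2.74), Mt2 2.12-fold (2.02 to 2.21) and Mt3 4.0-fold (2.92 to 5.59), the last from 46 UMIs in the upper class. Slc30a1 stood at 11.8, 10.3 and 10.4 CPM, 1.14-fold lower in the upper class (1.01 to 1.29), a small difference beyond counting error that was absent with an upper class of 6 or more GFP UMIs. Of the 4 members, Mt1 and Mt2 were called lower, where 76 of 8163 genes, or 0.931%, were, and Mt3 did not reach 10 CPM in either class. Cells of the upper class were shallower, with a median of 26187.0 UMIs against 32481.0. With the library split into 3 equal classes of depth, Mt1 stood at 214 CPM without GFP and 76.3 CPM with 3 or more in the shallowest class, at 257 and 87.3 in the middle class, and at 183 and 77.0 in the deepest. Mt1 was thus lower with more GFP in each depth class, and the part of depth in the GFP difference was not tested.

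**Figure D3:**
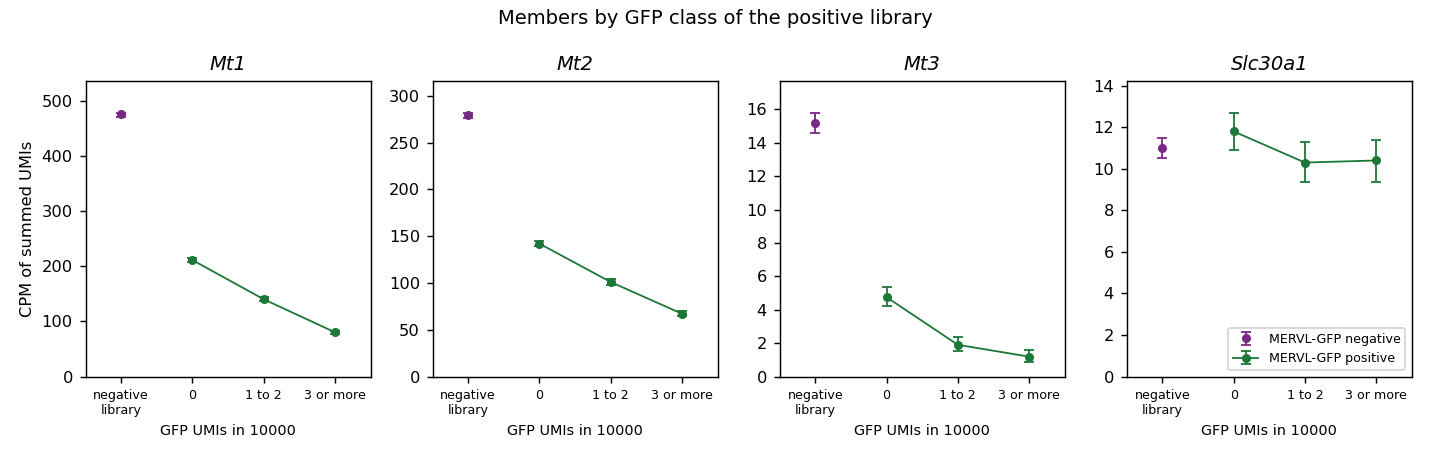
CPM of summed UMIs (vertical axes, from 0) of each member in the whole negative library (purple) and in positive-library cells (green) with 0, 1 to 2 and 3 or more GFP UMIs among 10000; bars are 95% Poisson intervals. Mt1 goes from 211 to 80.2 CPM across the GFP classes and lies at 475 CPM in the negative library, while Slc30a1 lies between 10.3 and 11.8 CPM throughout.

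Positive-library cells with no GFP UMI among 10000 did not reach the negative library's level: Mt1 stood at 211 CPM in them and at 475 CPM in the 3810 negative-library cells of the same class. The class does not mean that the transcript was absent, since at full depth these positive-library cells held 30.9 CPM of GFP and 120 CPM of the Zscan4 sum, against 0.302 and 0.629 CPM in the negative-library cells. In the 14 negative-library cells with 1 to 2 GFP UMIs, Mt1 stood at 341 CPM (293 to 395). Mt2 stood at 266 CPM (224 to 315) and Mt3 at 19.2 CPM (9.19 to 35.3) in them, against 279 and 15.2 CPM in the others. The counting interval of Mt1 alone lay below the others' level, but it leaves out the spread between cells. For Mt1 in this library the variance of thinned UMIs over their mean was 7.43, so with 14 cells nothing is read from the difference. The 14 cells also held more of the endoderm list, at 289 against 103 CPM, and its part in their Mt1 value was not tested.

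The Zscan4 genes, which are transcribed at the 2-cell stage and are near-identical copies whose separate counts are uncertain, were read as a sum of 6 genes. In positive-library cells with 0 (1965 cells), 1 to 4 (1572 cells) and 5 or more (865 cells) Zscan4 UMIs among 10000, Mt1 stood at 190 (187 to 194), 136 (133 to 139) and 72.2 CPM (68.6 to 75.9). Mt2 stood at 130, 99.3 and 60.6 CPM and Mt3 at 3.41, 2.96 and 0.961 CPM, the last from 20 UMIs. Slc30a1 stood at 11.5, 10.7 and 9.66 CPM, 1.19-fold lower in the upper class (1.02 to 1.40), with a log2 ratio of -0.77 where the upper class held 20 or more Zscan4 UMIs. Mt1 and Mt2 thus stood lower in each higher class of Zscan4, while the intervals of Mt3 overlapped in the lower classes, at 2.98 to 3.89 and 2.50 to 3.48 CPM. Between the outermost classes Mt1 was 2.64-fold (2.50 to 2.78), Mt2 2.15-fold (2.03 to 2.28) and Mt3 3.55-fold (2.25 to 5.92) lower.

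In that contrast 205 of 8298 genes, or 2.47%, were called lower, Mt1 and Mt2 among them, and Mt3 again missed the 10 CPM. The upper Zscan4 class had a median of 22249.0 UMIs per cell against 33065.0 and a mitochondrial share of 3.01% against 2.36%. Mt1 itself stood at 124, 172 and 152 CPM from the shallowest to the deepest class of the positive library and at 169, 141 and 147 CPM over 3 equal classes of rising mitochondrial share. Those ranges were narrower than the range over Zscan4 classes, and the part of depth in the Zscan4 difference was not tested.

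GFP and Zscan4 overlapped in part, which allowed them to be crossed. Cells with neither had 233 CPM of Mt1 (228 to 238; 1053 cells), cells with 3 or more GFP UMIs and no Zscan4 had 89.1 CPM (83.6 to 94.8; 348 cells), cells with 5 or more Zscan4 UMIs and no GFP had 122 CPM (109 to 136; 98 cells), and cells high in both had 62.0 CPM (57.7 to 66.5; 547 cells). Mt1 was therefore lower in each class with a marker and lowest in the class high in both. The classes were not free of the other marker at full depth: cells with Zscan4 and no GFP UMI among 10000 held 66.9 CPM of GFP against 25.1 CPM in cells with neither, and cells with GFP and no Zscan4 UMI held 43.6 against 26.3 CPM of the Zscan4 sum. For Mt2 the same 4 classes had 156, 68.1, 65.0 and 61.1 CPM, so that the 3 classes with a marker lay close together. Slc30a1 had 12.3, 9.86, 12.8 and 9.43 CPM.

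The negative library held 12 cells with 1 to 4 and 2 cells with 5 or more Zscan4 UMIs. Mt1 stood at 297 CPM (252 to 347) in the 12 and at 1980 CPM (1650 to 2360) in the 2, against 475 CPM in cells without Zscan4. The values of the 2 cells come from 125 UMIs, 1 of the cells was among the few with at least 20 Mt1 UMIs among 10000, and they go the opposite way to the positive library.

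Hypoxia genes were examined because low oxygen is among the known inducers of metallothioneins. The hypoxia list of 26 genes, which leaves out glycolytic enzymes, stood at 1890 CPM in the positive library and 1340 CPM in the negative. The median log2 ratio of its tested genes was 0.26, beside 0.14 over all genes. Of its 18 genes past the filter, 2 were called higher and 1 lower, beside 7.01% and 0.995% of all genes. The higher genes were P4ha2, a collagen prolyl hydroxylase, at 107 against 11.9 CPM, and Slc2a3, a glucose transporter, at 741 against 328 CPM, and the lower gene was Pdk1, a kinase that inhibits pyruvate dehydrogenase, at 28.6 against 61.6 CPM. Slc2a3 and P4ha2 made up most of the difference in the sum, and most of the list's genes lay within 2-fold between libraries.

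Across all cells of a library the metallothioneins followed the hypoxia list weakly or not at all. The 37 positive-library cells with 20 or more Mt1 UMIs among 10000 had the list at 2690 CPM, against 1870 CPM in the others. The 80 such negative-library cells had it at 1400 against 1340 CPM. In negative-library cells with 0 to 7, 8 to 11, 12 to 15 and 16 or more hypoxia UMIs among 10000 (663, 1160, 976 and 1025 cells), Mt1 stood at 514, 453, 456 and 491 CPM. In the positive library, with 197, 705, 994 and 2506 cells in the same classes, Mt1 stood at 167, 157, 169 and 143 CPM. At every hypoxia level the positive library was therefore below the negative one. Pearson's r between Mt1 and the list over log2 thinned UMIs was 0.01 over 3824 negative-library cells and -0.02 over 4402 positive-library cells, which share a library each.

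Mt2 stood at 249 CPM in the highest against 307 CPM in the lowest hypoxia class of the negative library and at 96.6 against 124 CPM in the positive, where its log2 ratio turned to 0.046 with glycolytic enzymes in the list. Mt3 stood at 14.9, 15.3, 15.2 and 15.3 CPM over the classes of the negative library and at 3.44, 4.86, 3.15 and 2.14 CPM over those of the positive. Slc30a1 stood at 10.3 against 11.4 CPM and at 12.6 against 10.8 CPM in the lowest and highest classes, with overlapping intervals. None of the 4 members was past 2-fold in either library, where 54 of 7999 genes, or 0.675%, were in the positive library and 53 of 7323, or 0.724%, in the negative. The small Mt1 difference of the positive library, a log2 ratio of -0.22, became 0.012 without cells of 5 or more endoderm UMIs, and 0.37 with glycolytic enzymes in the list.

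**Figure D4:**
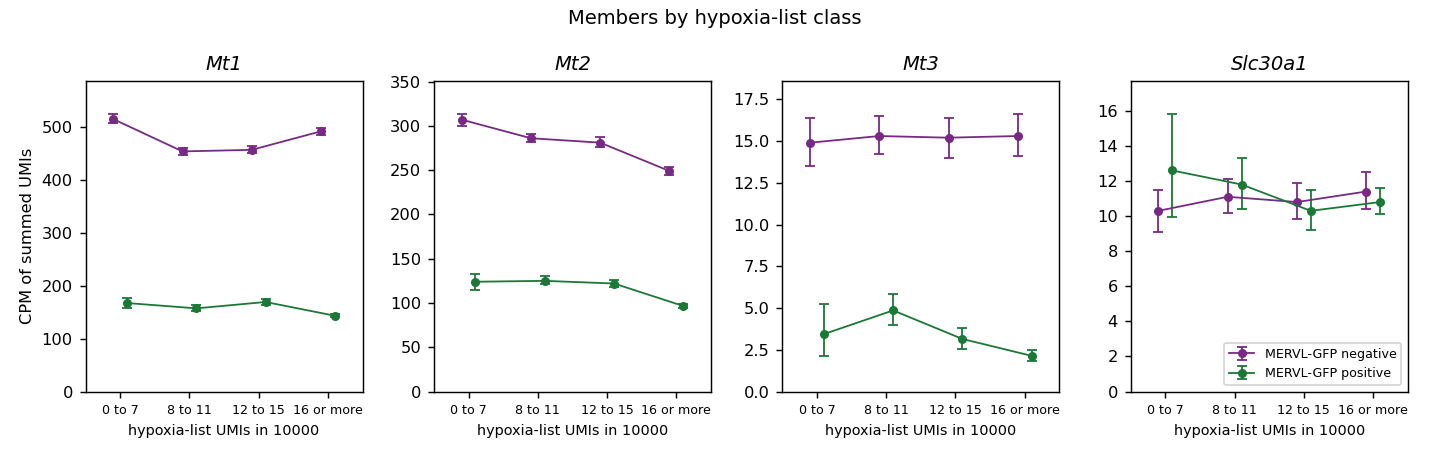
CPM of summed UMIs (vertical axes, from 0) of each member by the number of hypoxia-list UMIs among 10000 UMIs of a cell, in the negative (purple) and positive (green) libraries; bars are 95% Poisson intervals. Mt1 stays between 453 and 514 CPM in the negative library and between 143 and 169 CPM in the positive, and the libraries separate in every class for the metallothioneins and overlap for Slc30a1.

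Cells with markers of primitive endoderm, the extraembryonic layer that embryonic stem cells can give rise to in culture, were the other class with little metallothionein. In the negative library Mt1 stood at 491 CPM (487 to 495) in 3186 cells without the markers, 512 CPM (501 to 522) in 423 cells with 1 to 4 UMIs and 168 CPM (160 to 177) in 215 cells with 5 or more. In the positive library it stood at 170 CPM (167 to 173), 140 CPM (136 to 144) and 79.2 CPM (74.7 to 83.9) in 2763, 1174 and 465 cells. The class with 5 or more was the lowest in both libraries.

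Between the outermost endoderm classes Mt2 stood at 74.8 against 291 CPM in the negative library, 3.89-fold lower (3.61 to 4.20), and 29.9 against 124 CPM in the positive, 4.15-fold lower (3.78 to 4.58). Mt1 was 2.92-fold lower (2.78 to 3.07) and 2.15-fold lower (2.02 to 2.28). Mt3 was at 2.85 against 16 CPM in the negative library, 5.62-fold lower (3.82 to 8.62), and had 12 UMIs in the class in the positive. Slc30a1 stood at 10.7 against 10.9 CPM and at 9.43 against 11.2 CPM. In the negative library Mt1, Mt2 and Mt3, the last past 10 CPM through the cells without markers alone, were called lower, with 275 of 7619 genes or 3.61%. In the positive library Mt1 and Mt2 were, with 464 of 8211 genes or 5.65%. Median depth in the class was 40522.0 and 29859.0 UMIs, close to that of cells without the markers, at 39148.0 and 30849.0.

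**Figure D5:**
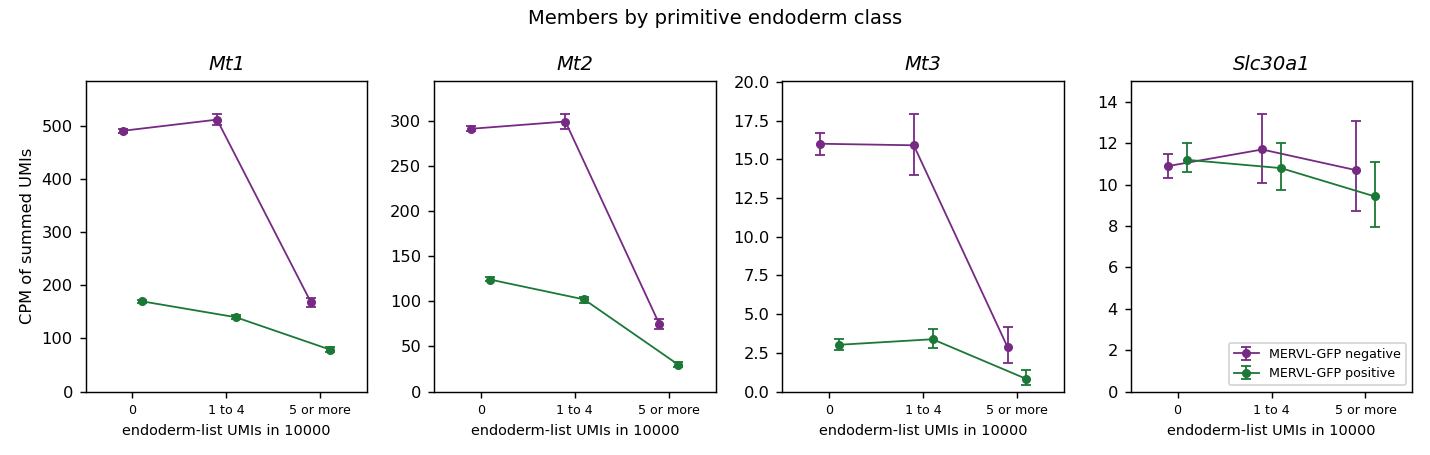
CPM of summed UMIs (vertical axes, from 0) of each member by the number of primitive endoderm UMIs among 10000 UMIs of a cell, in the negative (purple) and positive (green) libraries; bars are 95% Poisson intervals. Mt1 goes from 491 to 168 CPM in the negative library and from 170 to 79.2 CPM in the positive, and the intervals of Slc30a1 overlap between libraries in every class.

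The positive library held more cells of that class, 465 of 4402 against 215 of 3824. Without them the log2 ratio between libraries was -1.61 for Mt1, -1.30 for Mt2 and -2.04 for Mt3. With all cells it was -1.63, -1.36 and -2.07. Among positive-library cells without endoderm markers, Mt1 stood at 228 CPM without GFP (1124 cells) and 77.9 CPM with 3 or more GFP UMIs (821 cells). The part of endoderm cells in the library and GFP differences was not tested.

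Cells without any GFP, 2-cell-list or endoderm UMI among 10000 were compared last, a class chosen after the data were seen. The positive library had 309 such cells and the negative 3158. Mt1 stood at 319 CPM (308 to 330) against 492 CPM (489 to 496), 1.54-fold lower (1.49 to 1.60). Mt2 stood at 210 against 291 CPM, 1.39-fold lower (1.33 to 1.45), and Mt3 at 5.55 CPM from 59 UMIs against 16 CPM, 2.89-fold lower (2.23 to 3.81). Slc30a1 stood at 12.8 against 10.9 CPM, a ratio of 1.18 (0.980 to 1.40). Mt4 stood at 3.20 against 3.15 CPM, a ratio of 1.02 (0.694 to 1.44). Within this class Mt1 and Mt2 thus differed by less than between whole libraries, and Mt4 by less than its counting error. The sets were not matched in the markers at full depth, with the 2-cell list at 81.3 against 0.574 CPM, GFP at 19.9 against 0.318 CPM, the Zscan4 sum at 22.9 against 0.0853 CPM and the endoderm list at 15.3 against 8.96 CPM. Of all genes 15 of 7703, or 0.195%, were called lower, Mt3 among them. Nothing is read from that call, since Mt3 reached 10 CPM through the negative library alone and was chosen for its level in the same libraries. Leaving out cells with 20 or more Mt1 UMIs, 5 of the 309, brought Mt1 to 222 against 450 CPM and its log2 ratio from -0.63 to -1.02.

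The other genes of the cluster's surroundings and of metal handling were read for the same contrast. Of 6 genes flanking the cluster, 5 passed the filter and 0 were called lower beside 0.995% of all genes, with a median log2 ratio of -0.33 beside 0.14 over all genes. Upstream, Nudt21, a pre-mRNA cleavage factor, stood at 223 against 275 CPM and Bbs2, a subunit of a ciliary complex, at 17.9 against 22.7 CPM. Downstream, Nup93, a nuclear pore protein, stood at 45.5 against 45.3 CPM and Herpud1, a protein of the endoplasmic reticulum stress response, at 24.1 against 32.5 CPM. Ogfod1 stood at 7.35 against 10.3 CPM. Of the 5 genes Nup93 alone was not below the negative library, and the count of 0 is near the background, so nothing is read from it.

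Of 10 zinc exporters 3 passed the filter, of 14 zinc importers 3 did, and none of either was past 2-fold. Slc30a9 stood at 22.7 against 17.9 CPM and Slc30a5, an exporter into the secretory pathway, at 21.5 against 15.8 CPM. The importers Slc39a10, Slc39a6 and Slc39a14 stood at 70.8 against 78.4 CPM, 13.9 against 10.1 CPM and 8.71 against 13.5 CPM. In the list of metal-responsive genes 4 of 5 passed the filter and 0 were past 2-fold, Gclc, the catalytic subunit of the enzyme that starts glutathione synthesis, being at 37.4 against 22.9 CPM. With 0.995% of all genes called lower and 7.01% higher, a count of 0 among so few genes is near the background, and nothing is read from it.

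Copper genes had 0 of 8 past 2-fold, with Sod1, the copper and zinc superoxide dismutase, at 439 against 266 CPM and the copper chaperone Atox1 at 354 against 510 CPM. Iron genes had 1 of 8 called higher, Ncoa4, the receptor that takes ferritin to autophagosomes, at 79.8 against 30.3 CPM, and 0 lower. Fth1, the ferritin heavy chain, stood at 1840 against 2500 CPM and Tfrc, the transferrin receptor, at 125 against 120 CPM. Antioxidant genes had 0 of 9 past 2-fold, with the peroxiredoxin Prdx1 at 1980 against 2300 CPM and thioredoxin Txn1 at 1340 against 1280 CPM. Of 3 glucocorticoid-responsive genes past the filter 1 was called higher, Klf9 at 437 against 205 CPM. Of 9 heat shock genes 1 was, Hspa1a at 10.1 against 0.345 CPM. Hspa1a barely reached 10 CPM, through the positive library alone, and its count is made uncertain by its near-identical copy Hspa1b. None of these lists had a gene called lower, which with 0.995% of all genes called lower is near the background, as 7.01% is the share called higher.

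Mt2 was the gene whose level followed Mt1 most closely from cell to cell. Likeness was Pearson's r over log2(thinned UMIs + 1) within a library, ranked by the smaller value of the libraries, among 2570 genes with a mean of at least 0.5 thinned UMIs in both. For Mt2 it was 0.56 over 4402 positive-library cells and 0.46 over 3824 negative-library cells. All others were weak: the next, Ftl1-ps1, a ferritin pseudogene whose counts are uncertain because it resembles other copies, had 0.14 and 0.24, and Gsta4, a glutathione transferase, 0.21 and 0.12. Zfp42, Tmsb4x, Tdgf1, Chchd10, Ndufa7, Ldhb and Mylpf followed, with 0.10 to 0.11 as the smaller of their values. Among the most opposite genes were Lrpap1 at -0.11 and -0.14, Glul, Hnrnpu and Sall4. Cells of a library share its preparation, and r in sparse counts is held down by sampling.

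Mt3 had r of 0.13 and 0.11 to Mt1 in the positive and negative library. Slc30a1 had r of 0.01 to Mt1 in both libraries. In the negative library 509 cells had an Mt3 UMI among 10000 and 3315 had none. Cells with Mt3 had 572 against 459 CPM of Mt1, 336 against 270 CPM of Mt2, 5.60 against 2.58 CPM of Mt4 and 10.7 against 11 CPM of Slc30a1. The metallothioneins thus stood together in these cells, with log2 ratios of 0.32 for Mt1 and 0.31 for Mt2.

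Among genes past the 10 CPM limit, which leaves out Mt4, those with the largest ratio after Mt3 itself were Iqca, at 11.9 against 8.53 CPM, Gm973, Slc11a1, Sfrp1, Nnat, Fbxo36, Itpka, Cpne5, Wfdc2 and Tmem108, with log2 ratios from 0.33 to 0.44. Genes called lower in cells with Mt3 were 17 of 7174, or 0.237%. The lowest, named after their values were seen, were the endoderm genes Sox17 at 1.52 against 14.6 CPM, Gata6 at 7.12 against 47.7 CPM and Pdgfra at 1.90 against 11.1 CPM, with Cyp4f14 and Foxq1. The whole primitive endoderm list stood at 22.3 against 116 CPM, which restates from the other side the levels of Mt3 over endoderm classes and is no second result.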

How the data were processed

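The authors deposited 1 matrix of whole-number counts for each library. They are read as UMIs since barcodes of 16 bases name the cells; molecule counting, cell calling and annotation are not given in the sources used here. The submitters' processing notes name mm10, FastQC 0.11.2, Trim Galore 0.6.4 and STAR 2.7.6a, and the labels' extraction text describes kits of the kind used for bulk RNA, so how cells were captured is unknown.

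Cells were kept with at least 1000 UMIs, 500 genes and at most 20% mitochondrial UMIs, which removed 7 positive-library and 0 negative-library cells. No doublet caller was run, and an alternative left out cells above 2 times the median UMIs. UMIs were summed per library or class and scaled to CPM over all genes, and log2 ratios used CPM + 1. Classes and shares of cells came from cells thinned without replacement to 10000 UMIs, while class levels used all their UMIs. Hypoxia classes had limits of 8, 12 and 16 list UMIs, which divide the negative library into 4 classes. Intervals are exact Poisson for CPM, exact conditional for ratios and Clopper-Pearson for shares, and cover counting error only.

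The members and lists were chosen with earlier results of these data known. Named genes were the members, Mt4, metal-list genes past 2-fold, abundant genes of each metal list, the 10 genes most and 5 least like Mt1, and the 10 of largest ratio in cells with Mt3; 1 of them is not reported here, and any other name was picked with its values in view. Promoters came from the RefSeq table for GRCm38.p6, in which all 4 members matched by symbol, and positions from GENCODE vM21, whose gene IDs matched the feature table. The steps were tested on simulated data. Alternatives changed the scaling (TMM from edgeR 4.0.16 in R 4.3.3, median of ratios), filters, pseudocount, thinning and class limits. Other tools were pandas 2.3.3, scipy 1.17.1 and numpy 2.4.6 under Python 3.11.15.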

Additional observations from a re-analysis of the deposited data

Results flagged for a closer look

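Hypoxia-class differences of opposite sign in the libraries were seen for Mt3 and Slc30a1. For Mt3 the log2 ratio of CPM + 1 between the highest and lowest hypoxia class was -0.50 in the positive library (-0.92 to 0.032) and 0.038 in the negative (-0.13 to 0.21). For Slc30a1 it was -0.21 (-0.51 to 0.12) and 0.14 (-0.058 to 0.34). All 4 intervals include 0, each library is 1 sample, and the difference between libraries was not tested.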

How the results depend on the processing

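Of 48 alternative values of the library comparison, 27 lay within the counting interval of the reported value and 21 moved outside it. No value of Mt1, Mt2 or Mt3 changed sign, while Slc30a1, reported at 0.0033 with an interval that includes 0, became negative under both other scalings and under several other settings. TMM and the median of ratios gave -1.93 for Mt1 and -1.65 for Mt2 in both cases, -2.32 and -2.31 for Mt3, and -0.27 and -0.26 for Slc30a1, and they called 251 and 249 genes at least 2-fold lower in place of 80. CPM outside ribosomal protein and mitochondrial genes gave -1.68, -1.41 and -2.19 for Mt1, Mt2 and Mt3. The mean of each cell's CPM gave -1.72 and -1.44, and thinned cells -1.69 and -1.40, for Mt1 and Mt2. A pseudocount of 0.1 gave -2.37 for Mt3. Without endoderm cells, Mt1 was at -1.61 and Mt2 at -1.30, and without cells of 20 or more Mt1 UMIs, Mt1, Mt2 and Mt3 were at -1.79, -1.44 and -2.19. In cells without GFP, 2-cell or endoderm UMIs that last step gave -1.02 for Mt1 and -0.72 for Mt2.

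For the GFP classes, 5000 UMIs gave -1.49 for Mt1 and -1.0 for Mt2, and an upper class of 6 or more gave -1.58, -1.32 and, for Slc30a1, 0.00018, a change of sign. For the Zscan4 classes, an upper class of 20 or more gave -1.25 for Mt1 and -0.77 for Slc30a1, and leaving out endoderm cells gave -1.20 for Mt2. Hypoxia-class values near 0 changed most. Among positive-library cells Mt1 changed sign to 0.0034 with 5000 UMIs, 0.37 with glycolytic enzymes and 0.012 without endoderm cells, and Mt2 became 0.046 with glycolytic enzymes and -0.24 without endoderm cells. In the negative library Mt1 became 0.0062 with 5000 UMIs, 0.19 with glycolytic enzymes and -0.019 without endoderm cells, Mt2 -0.19, -0.11 and -0.24, and with glycolytic enzymes Mt3 0.36 and Slc30a1 -0.076. Apart from what each setting changes by construction, the cause was not tested. Shares of cells moved with depth: Mt3 was detected in 0.979% and 7.28% of cells thinned to 5000 UMIs. No paired analysis was possible because the groups have no replicates to pair. Several choices (endoderm cells, high-Mt1 cells, doublets, shared barcodes, the combined class) were made after seeing the data. Mt3 in the upper GFP, Zscan4 and endoderm classes rests on 46 UMIs or fewer, which limits its ratios there.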

Other observations

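A few cells with very high Mt1 stood out in each library, a class chosen after its values were seen. Of the positive library's thinned cells 37, or 0.841%, had at least 20 Mt1 UMIs among 10000 and held 19.6% of the Mt1 UMIs of all thinned cells at full depth. In the negative library 80 cells, or 2.09%, held 11.1%. In the positive-library cells Mt2 stood at 1370 CPM against 97.9 CPM in the others. It stood at 1290 CPM without the top cell, which held 151 of its 1545 UMIs. In the negative-library cells Mt2 stood at 867 against 268 CPM, and at 854 CPM without the top cell. Mt2 was thus higher in the cells chosen for Mt1 in both libraries, with no single cell carrying the value.

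Mt3 stood at 43.4 against 2.54 CPM in the positive-library cells, but 1 cell held 33 of its 49 UMIs, and the level was 14.6 CPM without that cell. Mt4 stood at 8.86 against 0.974 CPM from 10 UMIs, 5 of them in 1 cell, and at 4.49 CPM without it. In the negative library Mt3 stood at 19.4 CPM (14.7 to 25.1) against 15.1 CPM, a difference within counting error. Slc30a1 stood at 9.75 against 10.9 CPM in the positive library and at 10.2 against 11 CPM in the negative.

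Single cells carried much of what led the positive-library class apart from the metallothioneins. Plac1, a gene best known from placenta, stood at 29.2 CPM and at 4.62 CPM without its top cell, and Ldoc1 at 42.5 and 1.85 CPM. The calcium-binding S100a6 stood at 513 CPM and at 167 CPM without its top cell, against 60.1 CPM in the other cells, and Cbr3, a carbonyl reductase, at 175 and 88.6 against 14.6 CPM. Fgfbp1 kept 56.4 of 78.0 CPM, against 6.12 CPM in the others. Of the 37 cells, 21 had no GFP UMI, 8 had 3 or more, and 3 had 5 or more endoderm UMIs. The 2-cell list stood at 421 against 1070 CPM in this library. The pluripotency, primitive endoderm, fibroblast and neural lists were also lower in the class. Higher were the trophoblast list at 286 against 96.0 CPM, the hypoxia list at 2690 against 1870 CPM, and the antioxidant and heat shock lists. Hmox1 stood at 237 against 68.5 CPM and Krt8 at 104 against 31.3 CPM, while Cdx2 was at 0 against 0.317 CPM. For these last 3 genes and the higher lists the part of single cells was not measured.

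The negative-library class was led by 1700013H16Rik at 26.5 against 5.68 CPM, Lefty1, a secreted inhibitor of Nodal, at 80.5 against 21.7 CPM, and Klhl13 at 58.1 against 15.8 CPM. Without their top cells these stood at 19.6, 69.4 and 52.3 CPM. Ddit3, a factor of the stress response, stood at 23.1 CPM and at 12 CPM without its top cell, against 8.06 CPM. The 2-cell list stood at 11.2 against 1.47 CPM, with all of its 33 UMIs in the class from 1 cell. Of the 80 cells, 66 had no endoderm UMI and 1 had 5 or more Zscan4 UMIs. Whether the leading genes differed between libraries was not tested, and these cells were not tested as a separate type.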
